A study of Arabidopsis thaliana with 8 samples.

Results

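From AT1G01080 to AT1G02020, near the start of chromosome 1 of Arabidopsis thaliana, 48 genes are each named alone by a probe set, of 13333 genes that probe sets name alone on the whole array. They hold 49 of its 22810 probe sets and are 48 of the 98 protein-coding genes that the gene table (assembly TAIR10.1) lists between these locus tags, and all 49 were kept, dim ones included. The interval was selected on the log2 difference between a gibberellin-deficient mutant and Ler in these same arrays, where most of its genes were higher in the mutant, so that difference is given below as a description and is not tested. RNA of whole 7-day-old seedlings, which had received no treatment, was hybridised to 8 one-colour arrays in a comparison of plants altered in hormone-related genes. There were 4 groups of 2 arrays each. The wild types were Wassilewskija (Ws) and Ler-0 (Ler). The de-etiolated mutant was in the Col background, and the gibberellin-deficient mutant, marked as leaky, was in the Ler background. No mutated gene or allele is named in the labels, and no Col wild type was analysed here, so the mutation and the accession of the de-etiolated mutant cannot be told apart. The labels do not state whether replicate arrays were grown as separate cultures, and p-values therefore cover the spread between these arrays only.

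Locus tags number the nuclear genes of Arabidopsis along each chromosome, and neighbouring genes are as a rule transcribed from promoters of their own. The genes of this interval are grouped by position and not by function, and most are known here by locus tag alone. Among those with a symbol are ANGUSTIFOLIA (AN), which guides the polar expansion of leaf cells, the wall acetylation protein TBL25, the glycosyltransferase UGT72B3 and the centromeric histone HTR12, while the clock gene LHY lies just outside. Gibberellins promote germination and the elongation of stems and leaves, and de-etiolated mutants develop in darkness as other seedlings do in light.

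Arrays of the same group correlated at 0.973 to 0.978 (Pearson, log2 signal across the 13648 probe sets above the filter on dim signals) and arrays of different groups at 0.908 to 0.966. The 2%-trimmed mean signal was 100.01 in every array, so signals are relative to a common level, and fewer cells of a type and less RNA per cell cannot be told apart in whole seedlings. For the older actin control, 3′ over 5′ signal came to 3.84 and 4.93 on the gibberellin-deficient arrays and 5.22 and 4.77 in Ler. It was 2.26 and 1.90 in Ws and 2.35 and 2.32 in the de-etiolated mutant, so that both lines of Ler background lay higher. The newer actin control did not separate them. It gave 1.497 and 1.158 on the gibberellin-deficient arrays and 1.495 and 1.369 in Ler. Ws gave 1.26 and 1.374, and the de-etiolated mutant 1.32 and 1.309. The mutant's 25S rRNA control signal was 69.7 and 39.6, against 30.4 and 26 in Ler, 32.0 and 22.2 in Ws, and 108 and 62.4 in the de-etiolated mutant. Of 26 marker genes listed for shoot, root, seed, pollen and flower, 2 were named alone by a probe set. RCA, the activase of the carbon-fixing enzyme Rubisco, was bright in all arrays. It read 473 and 1061 in the de-etiolated mutant, a wide gap between replicates, and 913 to 1255 in the other groups. AT5G66390, listed as a root marker, had a signal of 158 and 140 in the gibberellin-deficient mutant against 62.5 and 65.9 in Ler, 107 and 116 in Ws, and 104 and 109.9 in the de-etiolated mutant. The part of the root marker and of the actin and rRNA controls in the differences below was not tested.

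The interval stood higher in both arrays of the gibberellin-deficient mutant than in the 6 others. For each probe set the log2 signal was set against its mean over the 8 arrays, and the median over the 49 probe sets was taken. This median was 0.49 and 0.52 on the gibberellin-deficient arrays. It was -0.13 and -0.14 in Ler, -0.10 and -0.15 in Ws, and -0.071 and -0.11 in the de-etiolated mutant. The mean over the 8 arrays includes the raised gibberellin-deficient ones, which by itself lowers the values of the other 6 arrays. Over the 42 probe sets of the genes that follow, AT1G02021 to AT1G03020, the same median was 0.16 and 0.054 in the gibberellin-deficient mutant and -0.060 to 0.046 in the other 6 arrays.

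**Figure D1:**
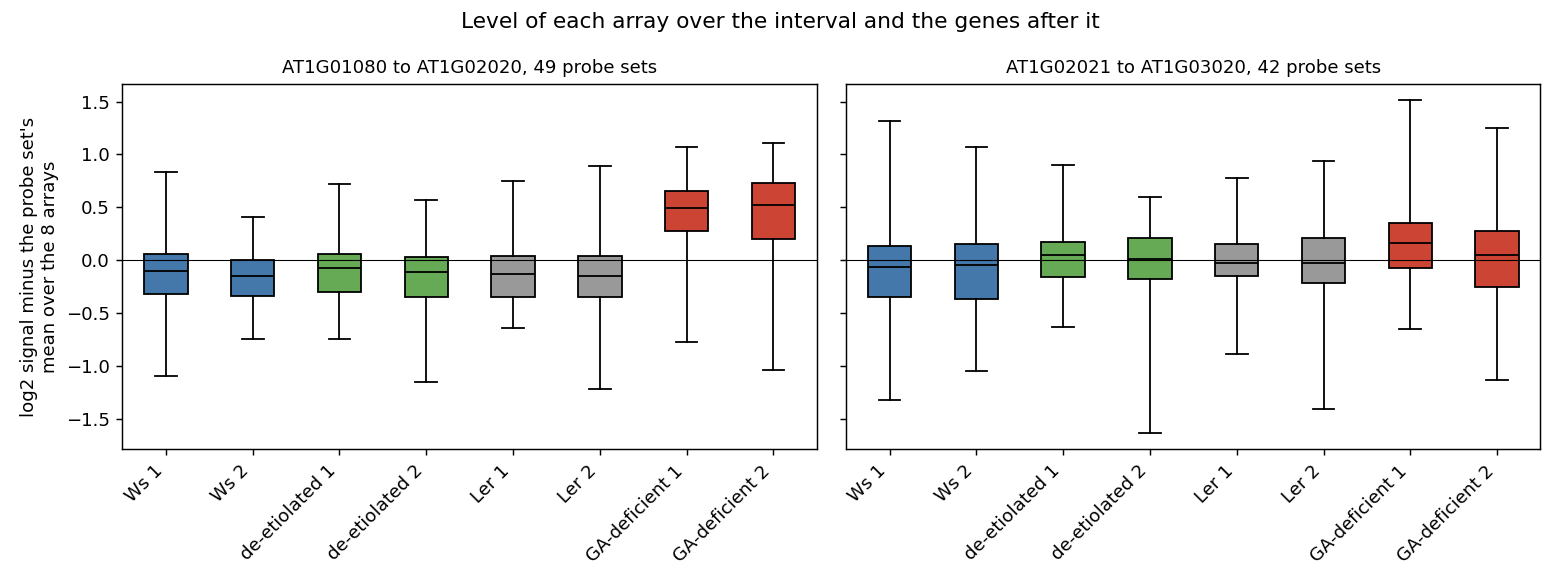
Log2 signal of each probe set minus its mean over the 8 arrays (y axis), by array (x axis), for the 49 probe sets of the interval (left) and the 42 of the genes after it (right). Boxes span the quartiles, lines mark medians and whiskers reach the lowest and highest probe set. On the left the medians of both gibberellin-deficient arrays are 0.49 and 0.52 and those of the 6 others lie below 0. The mean over the 8 arrays includes the gibberellin-deficient ones, which by itself lowers the values of the others.

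Against Ler, the contrast on which the interval was chosen, 44 of 49 probe sets had a higher mean log2 signal in the gibberellin-deficient mutant, where 51.3% of all probe sets did. Here and below a difference is one of group means of log2(signal + 2.96). Its median over the interval was 0.60, or 1.51-fold, with quartiles of 0.34 and 0.92, against a median of 0.012 and quartiles of -0.28 and 0.27 over all 22746 probe sets that are no array controls. On the deposited signals, with nothing added, the ratio of the mutant's mean to that of Ler had a median of 1.54 and quartiles of 1.28 and 1.98. Both mutant arrays exceeded both Ler arrays for 35 of 49 probe sets (26.1% over all probe sets), and they exceeded all 6 other arrays for 31 (11.0% over all). None of the 49 was below all 6 others in both mutant arrays (9.04% over all). The genes after the interval had a median difference of 0.065 and quartiles of -0.11 and 0.33, with 4 of 42 above and 4 below all other arrays.

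The difference was present at the median in each part of the interval, which was chosen on this same contrast, but not in every gene. Cut in gene order into stretches of 16, 17 and 16 probe sets, the interval had median differences from Ler of 0.45, 0.48 and 0.63. In the last stretch, from AT1G01710 on, all 16 probe sets were higher in the mutant, while in the first and middle stretches 13 of 16 and 15 of 17 were.

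**Figure D2:**
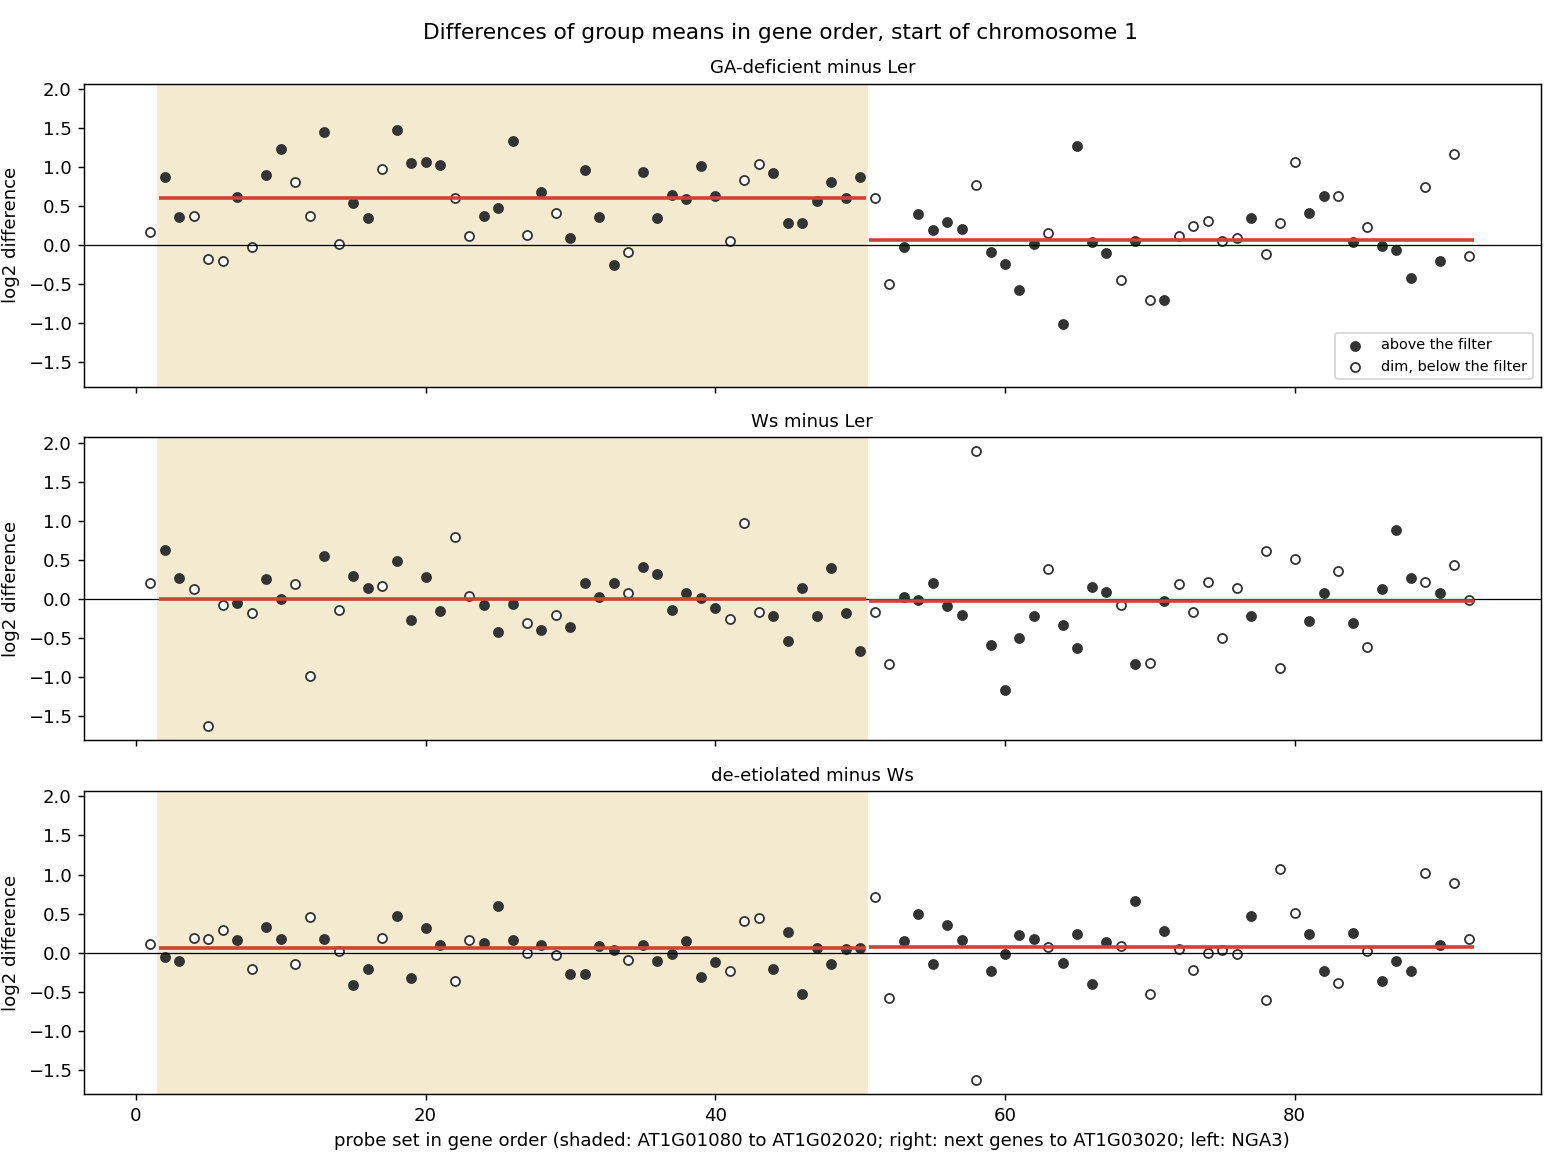
Differences of group means of log2(signal + 2.96) (y axis) for each probe set in gene order (x axis): gibberellin-deficient mutant minus Ler (top), Ws minus Ler (middle) and de-etiolated mutant minus Ws (bottom). The interval is shaded, open circles are dim probe sets and red lines are medians. The median of the shaded part is 0.60 at the top, -0.0069 in the middle and 0.059 at the bottom.

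Genes with a symbol gave 10 of the 49 probe sets, of which 4 were above the filter on dim signals. Signal of AN, which shapes leaf cells and trichomes, was 289 and 261 on the gibberellin-deficient arrays, 106 and 109 on those of Ler, 101 and 104 on those of Ws and 139.7 and 93.4 on the de-etiolated ones. Both mutant arrays thus lay well above the other 6, which read 93.4 to 139.7. The difference was 1.33 from Ler, 1.40 from Ws and 1.24 from the de-etiolated mutant. TBL25, of a family that acetylates wall polysaccharides, had a signal of 434 and 462 on the gibberellin-deficient arrays, 221 and 204 on those of Ler, 237 and 280.2 on those of Ws and 324 and 319 on the de-etiolated ones. Its groups did not overlap at all, with Ler lowest, Ws next, then the de-etiolated mutant and the gibberellin-deficient mutant. The differences were 1.07, 0.79 and 0.47 in the same order of comparison.

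UGT72B3, of a family of enzymes that attach sugars to small molecules, had a signal of 133 and 133 on the gibberellin-deficient arrays, 67.7 and 58.7 on those of Ler, 54.2 and 49 on those of Ws and 58.9 and 27.6 on the de-etiolated ones. The gibberellin-deficient arrays were nearly equal and lay above all others, with differences of 1.04 from Ler, 1.32 from Ws and 1.65 from the de-etiolated mutant. PLIM2b, a LIM-domain protein of a family that bundles actin filaments, had a signal of 198 and 180.1 on the gibberellin-deficient arrays, 93 and 91.1 on those of Ler, 116 and 74.4 on those of Ws and 63.6 and 86.7 on the de-etiolated ones. Again both mutant arrays were above all others, by 1.01 from Ler, 1.0 from Ws and 1.31 from the de-etiolated mutant.

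The other 6 symbols were dim. HTR12, the histone variant that marks centromeres, was at 37.4 and 36.6 in the gibberellin-deficient mutant and at 15.6 to 23.4 in the other 6 arrays. The subtilisin-like protease SBTI1.1 was at 37.7 and 43.3 in that mutant and at 12.1 to 31.1 elsewhere, so that both genes lay above the other arrays despite their low signal. The arrays of IQD18, of a family that binds calmodulin, the lipid kinase PIPK11, the MADS-box gene AGL28 and TRM33 overlapped between the mutant and Ler. Their differences were 0.37, 0.11, 0.12 and -0.090. Signal of PIPK11 was 0.728 to 1.5 over all arrays, too dim for a difference to be read.

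Of the 39 probe sets known by locus tag only, AT1G01390 differed most between the gibberellin-deficient mutant and Ler, with a signal of 128 and 112 on the gibberellin-deficient arrays, 54 and 31.1 on those of Ler, 68.2 and 50.7 on those of Ws and 67.2 and 100.4 on the de-etiolated ones. The second Ler array was the lowest of the 8. The difference was 1.48 from Ler, and against Ws and the de-etiolated mutant it was 0.99 and 0.53. AT1G01300 had a signal of 810.5 and 917 on the gibberellin-deficient arrays, 323 and 305 on those of Ler, 435 and 487 on those of Ws and 606 and 442 on the de-etiolated ones. Ler was its lowest group and the gibberellin-deficient mutant its highest, 1.45 apart, with Ws and the de-etiolated mutant in between. AT1G01230, by contrast, was nearly level in Ler and Ws. Its signal was 380 and 391 on the gibberellin-deficient arrays, 162 and 163 on those of Ler, 170.1 and 154 on those of Ws and 197 and 169 on the de-etiolated ones, and the differences were 1.23, 1.24 and 1.06 from Ler, Ws and the de-etiolated mutant. AT1G01440, at 66.5 and 58 on the gibberellin-deficient arrays, 29.1 and 28.8 on those of Ler, 19.5 and 33.6 on those of Ws and 29.7 and 25.9 on the de-etiolated ones, had a difference from Ler of 1.03.

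A few members above the filter showed little or no difference. The only one lower in the gibberellin-deficient mutant than in Ler was AT1G01670, at 24.7 and 31.3 on the gibberellin-deficient arrays, 29.2 and 39 on those of Ler, 38.6 and 40.3 on those of Ws and 30.3 and 53.6 on the de-etiolated ones. The mutant arrays overlapped with those of Ler and the de-etiolated mutant and lay below both of Ws, and the difference from Ler was -0.25. AT1G01630, at 246 and 336 on the gibberellin-deficient arrays, 297 and 248 on those of Ler, 221 and 199 on those of Ws and 179 and 167 on the de-etiolated ones, differed from Ler by 0.084 and overlapped with it, while the same mutant arrays lay above those of Ws and the de-etiolated mutant. AT1G01930, at 55.7 and 38.6 on the gibberellin-deficient arrays, 38.4 and 36.9 on those of Ler, 35.4 and 48.7 on those of Ws and 21.3 and 36.1 on the de-etiolated ones, had a difference of 0.28, and its second mutant array was below one array of Ws. AT1G01920, at 45.4 and 37.3 on the gibberellin-deficient arrays, 37.3 and 29.6 on those of Ler, 25.4 and 18.7 on those of Ws and 30.3 and 23.6 on the de-etiolated ones, differed by 0.28, with the second mutant array level with the higher Ler array.

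**Figure D3:**
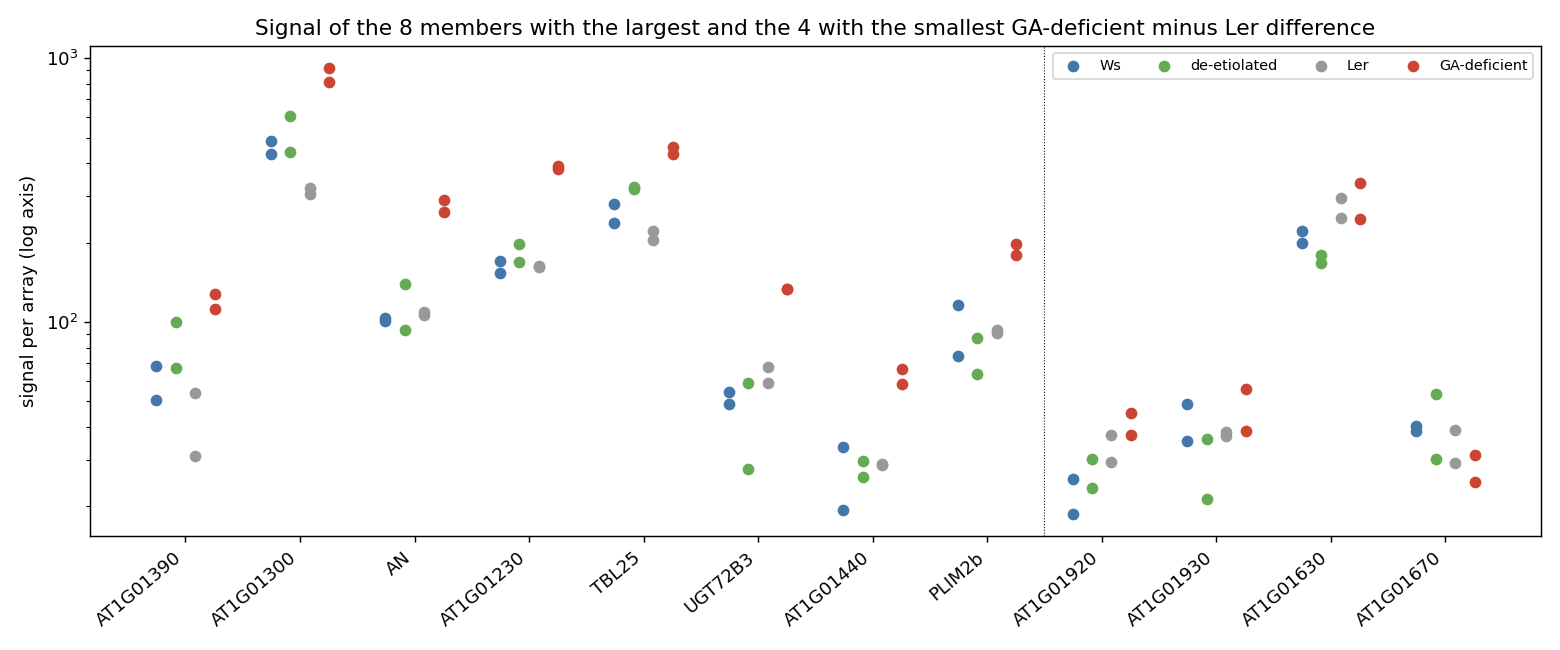
Deposited signal per array (y axis, log scale) of the 8 probe sets above the filter with the largest and, right of the dotted line, the 4 with the smallest or most negative difference between the gibberellin-deficient mutant and Ler (x axis). Each point is an array, coloured by group. In the first 8 both red points lie above all others, and in AT1G01670 they overlap with Ler and the de-etiolated mutant and lie below Ws.

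AT1G01320 was the only gene of the interval with more than 1 probe set. The brighter one read 1068 and 1002 on the gibberellin-deficient arrays, 733 and 698 on those of Ler, 839 and 915 on those of Ws and 577 and 746 on the de-etiolated ones. The dimmer one read 129 and 123 on the gibberellin-deficient arrays, 114 and 85.7 on those of Ler, 99 and 121 on those of Ws and 85.8 and 103 on the de-etiolated ones. Both put the gibberellin-deficient mutant highest, with differences from Ler of 0.53 and 0.34. The brightest member, AT1G01100, at 2249 and 2223 on the gibberellin-deficient arrays, 1752 and 1751 on those of Ler, 2266 and 1964 on those of Ws and 2014 and 1894 on the de-etiolated ones, had a difference of 0.35 from Ler and of 0.084 from Ws. These signals lie toward the upper end of the scale, as the highest of any probe set on an array ranged from 2134 to 2814.

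Dim probe sets gave smaller differences than bright ones. The 33 members above the filter had a median difference from Ler of 0.64, with 32 higher in the mutant (51.0% of all probe sets above it). The 16 below it had a median of 0.24, with 12 higher (51.3% over all probe sets, bright ones included). The filter uses the mean over all 8 arrays, so a higher mutant signal can help a member to pass it. The added 2.96 shrinks differences of dim probe sets, and on the deposited signals the median ratios were 1.57 and 1.37. The 4 dim members that were lower in the mutant were AT1G01130, AT1G01150, AT1G01180 and TRM33, with differences of -0.20 to -0.028.

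At the right-hand edge the last members were AT1G01990 and AT1G02020. AT1G01990 read 104 and 108 on the gibberellin-deficient arrays, 69.7 and 67.7 on those of Ler, 60.9 and 60 on those of Ws and 84.3 and 46.3 on the de-etiolated ones. Both mutant arrays were above all others, with a difference from Ler of 0.60, and that of AT1G02020 was 0.87. Just outside, 2 dim genes followed. AT1G02060 read 21.6 and 29.1 on the gibberellin-deficient arrays, 15.7 and 15.4 on those of Ler, 13.6 and 13.4 on those of Ws and 25.7 and 22.5 on the de-etiolated ones, with both mutant arrays above Ler and Ws but overlapping with the de-etiolated mutant, and had a difference from Ler of 0.60. AT1G02070 read 27.1 and 10.8 on the gibberellin-deficient arrays, 21.5 and 31 on those of Ler, 23.5 and 6.9 on those of Ws and 17.3 and 2.82 on the de-etiolated ones, with wide gaps between arrays of 1 group, and had -0.50. AT1G02080, the first bright gene outside, read 242 and 261 on the gibberellin-deficient arrays, 237 and 278 on those of Ler, 249.8 and 271 on those of Ws and 299 and 280 on the de-etiolated ones. The gibberellin-deficient mutant overlapped with Ler and Ws and lay below the de-etiolated mutant, and its difference from Ler was -0.027. Of the 23 later probe sets above the filter, AT1G02360 was the only one as far above Ler as the highest members. It read 171 and 183 in the gibberellin-deficient mutant and 91.9 and 56.3 in Ler, a difference of 1.26. The largest difference in the other direction was that of AT1G02330, at 17.5 and 20.2 in that mutant and 37.3 and 44.9 in Ler, or -1.01. At the left-hand edge the first members were AT1G01080 (0.87) and AT1G01100 (0.35). Only 1 probe set named a gene before them, that of NGA3, a transcription factor of leaf and flower growth, which was dim at 16.7 and 13.5 on the gibberellin-deficient arrays, 16.3 and 10.5 on those of Ler, 17.9 and 13.5 on those of Ws and 19.1 and 15 on the de-etiolated ones. Its mutant and Ler arrays overlapped, with a difference of 0.16. The data therefore do not show where the higher signal begins on that side. On the right, AT1G02060 outside the interval had the same rounded difference as the member AT1G01990, 0.60. The interval was selected on this same contrast, so a drop in the difference at its ends is partly built in and was not tested.

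Ws and the de-etiolated mutant showed no common shift from Ler over the interval, although single probe sets differed in both directions. Quartiles of the difference from Ler were -0.21 and 0.21 for Ws (-0.29 and 0.19 over all probe sets). For the de-etiolated mutant they were -0.29 and 0.24 (-0.33 and 0.25 over all probe sets). The median difference of Ws from Ler was -0.0069, with 24 of 49 probe sets higher (45.3% over all), and that of the de-etiolated mutant from Ler was 0.044, with 25 higher (48.1% over all). From the gibberellin-deficient mutant, by comparison, the medians were 0.62 against Ws and 0.56 against the de-etiolated mutant, with 44 of 49 probe sets higher in each (53.6% and 52.2% over all). These comparisons share arrays with the one that chose the interval and are given without a test. The gibberellin-deficient mutant had the highest group mean in 41 of 49 probe sets (31.4% over all). The lowest mean was in Ler for 17 (22.1% over all), in Ws for 15 (25.6%), in the de-etiolated mutant for 14 (25.7%) and in the gibberellin-deficient mutant for 3 (26.7%). Both Ler arrays were below all 6 others in 8 of 49 (5.50% over all), among them AT1G01080, AT1G01300 and TBL25.

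Single members departed from this common pattern. AT1G02020 read 117 and 131 on the gibberellin-deficient arrays, 69.1 and 63.7 on those of Ler, 34.3 and 48.2 on those of Ws and 44.2 and 41 on the de-etiolated ones, so that Ler itself was above Ws and the de-etiolated mutant by more than the gap between arrays. It lay 1.54 lower in Ws than in the gibberellin-deficient mutant but 0.87 lower in Ler. AT1G01080 was the reverse. Its signal was 386 and 489 on the gibberellin-deficient arrays, 229 and 244 on those of Ler, 373 and 359.6 on those of Ws and 351 and 353 on the de-etiolated ones, with Ler lowest and a difference of the gibberellin-deficient mutant of 0.87 from Ler and 0.24 from Ws. AT1G01130, dim in all arrays, read 14.9 and 19.4 on the gibberellin-deficient arrays, 18.6 and 20.9 on those of Ler and 3.08 to 7.4 in the 4 arrays of the other groups. It was therefore higher in both lines of Ler background and not in the mutant alone.

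The de-etiolated mutant and Ws were compared by a test because this is the only pair of groups that shares no array with the choice of the interval. It asked whether single members above the filter also differ between plants outside that contrast, and it does not test the interval as a whole. No member was called, out of the 33 above the filter (limma, Benjamini-Hochberg adjusted p under 0.05, where 306 of 13648 probe sets or 2.24% were called). That count of 306 was 187 and 77 without replicates 1 and 2 of Ws, 115 without replicate 1 of the de-etiolated mutant, and 201 and 198 without replicates 1 and 2 of the gibberellin-deficient mutant. At the share of 2.24% called over all probe sets, few calls or none are likely among 33 members. The lowest adjusted p of a member was 0.147 (limma). At an unadjusted p under 0.05 there were 2 of 33 members, or 6.06%, against 16.9% of all probe sets tested. The median difference over all 49 was 0.059, with quartiles of -0.14 and 0.17, against 0.020 over all probe sets, and 28 were higher (52.5% over all). Both arrays of the de-etiolated mutant were above both of Ws in 6 of 49 (21.9% over all) and below in 7 (19.0% over all).

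The largest difference in that pair among members above the filter was in AT1G01500, at 152 and 109 on the gibberellin-deficient arrays, 71.4 and 117 on those of Ler, 81.6 and 55.5 on those of Ws and 125 and 85.1 on the de-etiolated ones. Its arrays varied within every group, and the difference of 0.59 (SE 0.28) did not pass the test (limma, adjusted p = 0.301). AT1G01930 had -0.53 (SE 0.28, limma adjusted p = 0.364) and AT1G01390 had 0.46 (SE 0.27, limma adjusted p = 0.411). The brighter probe set of AT1G01320 had -0.42 (SE 0.14, limma adjusted p = 0.147), and without replicate 2 of the de-etiolated mutant it was called lower (-0.60, SE 0.14, limma adjusted p = 0.0454). That fit has 1 array of the de-etiolated mutant, which is assumed to vary like the arrays of the other groups. TBL25, whose arrays did not overlap between these groups, had 0.31 (SE 0.14, limma adjusted p = 0.27). The SE of a member's difference ranged from 0.112 to 0.311, with a median of 0.188, so a p that missed the threshold does not show that the groups were equal.

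**Figure D4:**
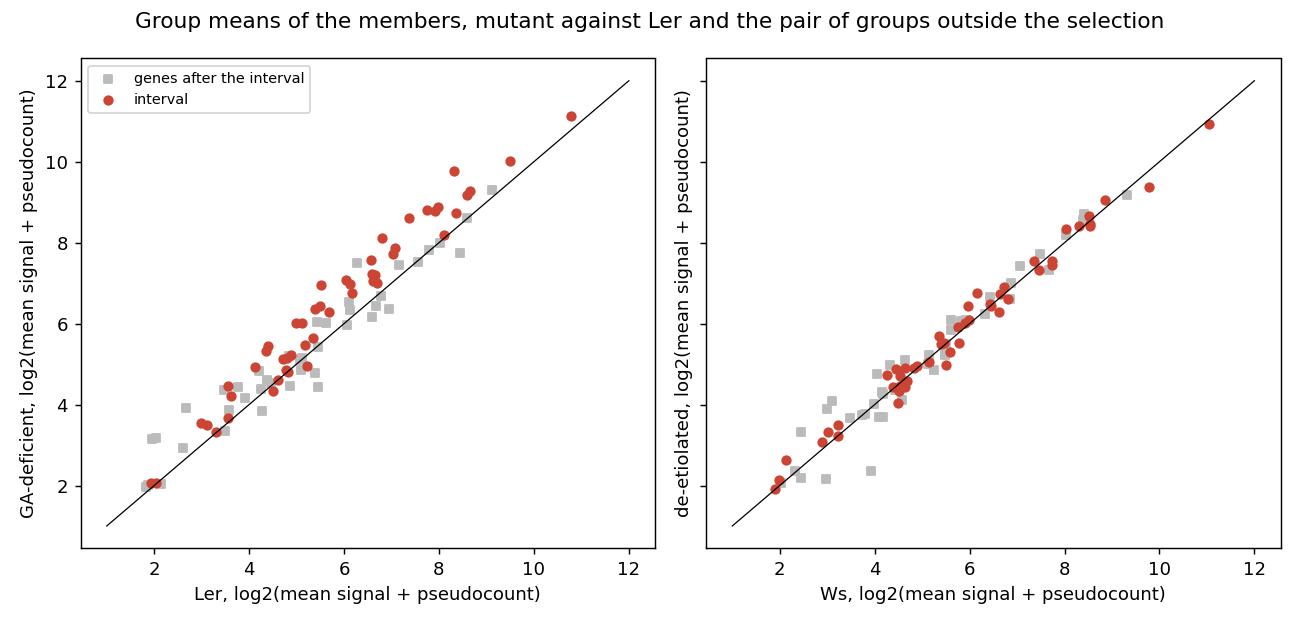
Log2 of the mean deposited signal plus 2.96 of each probe set in the gibberellin-deficient mutant against Ler (left) and in the de-etiolated mutant against Ws (right). Circles are the 49 probe sets of the interval, squares the 42 of the genes after it, and the line marks equal signal. On the left most circles lie above the line, and on the right they scatter around it. The median differences of mean log2 values, which are not the plotted log2 of means, are 0.60 and 0.059.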

How the data were processed

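Each probe set has 1 deposited signal intensity for each array, which the authors made with MAS5 according to the submitters' processing notes. Its settings are not given in the sources used here. Names came from the array's annotation, which gives 1 gene for 13513 probe sets, several for 503 and none for 8794 (64 of them array controls). Of the first, 13484 matched a locus tag of the gene table (TAIR10.1), used for symbols and gene order.

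Values were taken to log2(signal + 2.96), where 2.96 is 10% of the median over probe sets with 1 gene. For the test, controls and the lowest 40% by mean log2 value were left out. One limma fit (trended eBayes, two-sided, Benjamini-Hochberg over 13648 probe sets) took in all 8 arrays, with 4 residual and 8 prior degrees of freedom. The number of arrays limits the precision. In 20 simulated data sets for the de-etiolated mutant against Ws (13648 probe sets), 44 to 61 of 100 probe sets changed 2-fold were recovered. Of 100 changed 4-fold, 89 to 97 were recovered, with 0 to 14 false calls. The simulated noise was normal, group means were otherwise equal, and all changes were upward in the de-etiolated mutant. Differences of the members tested were smaller, at most 0.591 in log2, so these shares do not give the power for them.

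Members, lists and tests were chosen with earlier results of these data known. Values on every array are given for the 8 largest and 4 smallest differences between the gibberellin-deficient mutant and Ler among members above the filter, for AN, TBL25 and UGT72B3, for the gene with 2 probe sets and for genes at the edges. AT1G01500, AT1G01130, AT1G02330, AT1G02360, HTR12 and SBTI1.1 were named after their values were seen. Lists of members by role were not used, since 16 of 44 listed genes had a probe set of their own. Alternatives covered normalization, pseudocount, filter, trend, threshold, the arrays in the fit, probe sets prone to cross-hybridise, a block for the replicate letter, and each array left out. R 4.3.3, limma 3.58.1, Python 3.11.15, numpy 2.4.6, pandas 2.3.3, scipy 1.17.1 and matplotlib 3.10.9 were used.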

Additional observations from a re-analysis of the deposited data

How the results depend on the processing

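The count of members called (0 of 33) between the de-etiolated mutant and Ws was 0 to 1 on leaving out each array, with 1 (AT1G01320) without replicate 2 of the de-etiolated mutant, and 0 under every other alternative run, including 0 of 49 with no filter. The count of 306 over all probe sets was 135 with no filter, 115 without the trend, 180 with the 4 arrays of these groups alone, 83 at a threshold of 0.01, and 77 to 353 on leaving out each array. Replicate letters are shared between groups but did not pair the samples (correlations of replicate deviations -0.033 to 0.137), and a replicate block gave 0 members and 430 probe sets.

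The median over the members, between the gibberellin-deficient mutant and the other groups, stayed above 0.45 under all alternatives. Against Ler (0.60) it was 0.51 when 50% of the median signal was added, 0.64 for members above the filter, and 0.51 to 0.66 on leaving out each array. Against Ws (0.62) it was 0.55 with quantile normalization, 0.46 and 0.68 with a pseudocount of 50% and 1%, 0.77 above the filter, and 0.56 to 0.67. Against the de-etiolated mutant (0.56) it was 0.45 and 0.62 with those pseudocounts, 0.65 above the filter, and 0.52 to 0.63. The medians near 0 had no stable sign. Ws minus Ler was 0.068 with quantile normalization and -0.030 to -0.0019 on leaving out each array. The de-etiolated mutant minus Ler was -0.014 with a pseudocount of 1% and -0.058 to 0.049, and minus Ws it was 0.027 with quantile normalization and -0.032 to 0.14. The causes were not tested.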

Other observations

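Outside the 49 probe sets, 2 others name a gene of the interval together with a gene on another chromosome, so their signal cannot be assigned to either. The one for AT1G01210 and AT4G07950 read 339 and 305 on the gibberellin-deficient arrays, 218 and 238 on those of Ler, 222 and 245 on those of Ws and 234 and 223 on the de-etiolated ones, a difference of 0.49 from Ler with both mutant arrays above all others. The one for AT1G01350 and AT5G06420 read 75.5 and 67.1, 70.5 and 71.7, 51.6 and 70.2 and 41 and 29.2 in the same order. Its difference between the gibberellin-deficient mutant and Ler was 0.0016, and the de-etiolated mutant was its lowest group.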
